A study of Avicennia officinalis with 4 samples.

Results

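Ethylene response factors (ERFs) are plant transcription factors with an AP2/ERF domain, which binds GC-rich promoter elements such as the GCC box. In Arabidopsis, ethylene stabilises the transcription factor EIN3, EIN3 switches on ERF1, and ERF1 and its relatives act on stress and defence genes, many of which also answer to jasmonate. The family is one of the largest in plants and holds both activators and repressors of transcription, so its members need not move together.

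The unigenes described here are the 7 ERFs among the transcription factors that the study of mangrove roots listed as abundantly regulated by salt. The table of the study holds 168308 unigenes (assembled transcripts). Any ERF that the study did not list is not covered, so every ERF sum, share and count below is of these 7 only. All 7 were found, as Unigene35061_All (Ug35061, named ERF114), Unigene42955_All (Ug42955, named ERF1B), Unigene152478_All (Ug152478), Unigene49200_All (Ug49200), Unigene65696_All (Ug65696), Unigene102419_All (Ug102419) and Unigene20505_All (Ug20505). The study names further ERFs as up-regulated, but the sources used here pair none of those names with the last 5 unigenes. The study listed them because of their RPKM in salt-treated against control roots of these same libraries, 5 as higher and 2 as lower in salt. It also measured some of its ERFs by quantitative PCR and reported ERF114 and ERF1B as up-regulated. Those measurements are not part of the data used here. The difference between the groups therefore chose the members and is given for them as a description, without a test.

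The roots came from seedlings of Avicennia officinalis, a salt-secreting mangrove tree, grown from propagules gathered in the wild and kept without NaCl in a greenhouse until an age of 2 months. Salt-treated plants received nutrient solution with 500 mM NaCl for 24 h, and control plants are labelled only as control. Each group had 2 mRNA-sequencing libraries (n = 2), each from the roots of 3 plants, so that no value belongs to a single plant. Pairs of values are given below in the order replicate 1, replicate 2.
The libraries held 16943847 to 22074032 reads on the unigenes with enough reads for a test, and the most abundant unigene took 10.8% of the reads of control replicate 2 and 3.21% of those of control replicate 1. The table carries no gene names, so the labelled tissue was not checked against root markers here, and in whole roots fewer cells of a type and less RNA per cell cannot be told apart.

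In sum, the transcripts of these 7 ERFs were fewer in replicate 1 than in replicate 2 of each group. In salt-treated roots the 5 members listed as higher made up 52.3% and 46.5% of the summed ERF RPKM, against 27.3% and 1.47% in the control. The other part of the sum came from Ug102419 and Ug20505, which were by far the most abundant members of control replicate 2. RPKM is the number of reads scaled to the length of the unigene and to the counted reads of the library, so levels of unigenes of different length can be added and compared. The plot of RPKM by library shows all 28 values of the 7 members, of which 4 were at 0 reads.

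**Figure D1:**
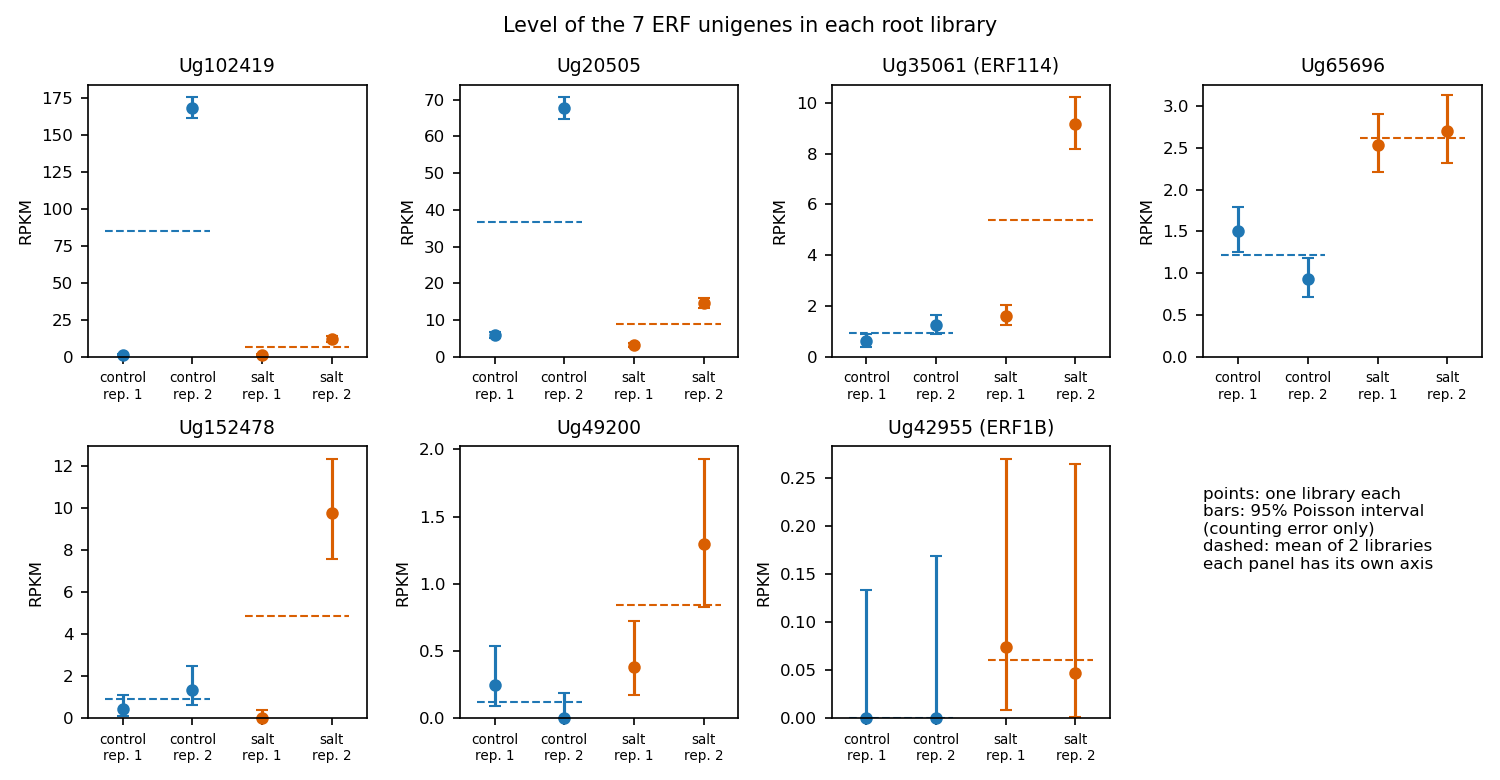
RPKM of the 7 ERF unigenes in 2 control and 2 salt-treated root libraries, 1 panel with its own axis per unigene; points are libraries, bars are 95% Poisson intervals of the read count and dashed lines are group means. Ug102419 and Ug20505 were highest in control replicate 2, Ug35061, Ug152478 and Ug49200 were highest in salt replicate 2, and for Ug65696 the salt-treated libraries lay together above the control libraries.

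Ug35061 is the member named ERF114, of the subgroup that in Arabidopsis also holds ERF115, a factor known for cell division in the root stem cell niche and for regeneration. This unigene of 2044 bp, most similar to a V. vinifera (grape) sequence, drew 28 and 45 reads under control conditions, then 72 and 321 under salt. Scaled to length and depth, that is 0.610 and 1.24 RPKM against 1.62 and 9.17 RPKM. The groups did not overlap, but salt replicate 1 was closer to the control than to salt replicate 2. The mean was 0.923 ± 0.443 RPKM (SD, n = 2) in the control and 5.39 ± 5.34 RPKM (SD, n = 2) in salt, a 5.84-fold higher mean. Within libraries of the same number, Ug35061 was 2.65-fold higher in salt in replicate 1 and 7.42-fold higher in replicate 2. The 95% Poisson interval of salt replicate 1 began at 1.27 RPKM and that of control replicate 2 ended at 1.65 RPKM, so these intervals overlapped. Within the same number they did not. In replicate 1 they were 0.405 to 0.882 RPKM in the control and 1.27 to 2.04 RPKM in salt. In replicate 2 they were 0.902 to 1.65 RPKM and 8.19 to 10.2 RPKM.

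Ug65696 differed least between libraries of a group among the 5 members with enough reads for a test. This unigene is the longest of the 7, with 3817 bp, and is longer than 97.4% of the unigenes with reads. It drew 129 and 63 reads under control conditions, then 211 and 177 under salt, which is 1.51 and 0.927 RPKM against 2.54 and 2.71 RPKM. The groups did not overlap, and the salt-treated libraries differed by only 1.07-fold. The mean was 1.22 ± 0.409 RPKM (SD, n = 2) in the control and 2.62 ± 0.119 RPKM (SD, n = 2) in salt, 2.16-fold higher, with 1.69-fold and 2.92-fold in replicates 1 and 2. It was the only member of the 7 whose groups were further apart than the 95% Poisson intervals of the libraries, which ended at 1.79 RPKM or less in the control. The share of all unigenes with such a gap was not computed, and the members were chosen on this difference.

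Ug152478 and Ug49200 were seen mainly in salt replicate 2. Ug152478, a short unigene of 413 bp, drew 4 and 10 reads under control conditions, then 0 and 69 under salt. Its RPKM was 0.431 and 1.36 in the control and 0 and 9.75 in salt, so that the groups overlapped, and its salt replicate 2 was at least 29.2-fold higher than its salt replicate 1 (0 reads, taken as up to 3 in a library). Within replicate 2 it was 7.17-fold higher in salt. Within replicate 1 it was lower in salt, but on 4 against 0 reads. There the 95% Poisson intervals of 0.118 to 1.10 RPKM in the control and 0 to 0.410 RPKM in salt overlapped.
Ug49200 (1081 bp) drew 6 and 0 reads under control conditions, then 9 and 24 under salt, which is 0.247 and 0 RPKM against 0.382 and 1.30 RPKM. The groups did not overlap, yet the 95% Poisson intervals of control replicate 1 (0.0907 to 0.538 RPKM) and salt replicate 1 (0.175 to 0.726 RPKM) did. In replicate 2 it was at least 8.32-fold higher in salt, and in replicate 1 it was 1.55-fold higher.

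Ug42955 was at the limit of detection. In Arabidopsis the gene named ERF1B is the ERF1 that links ethylene with jasmonate. With a length of 1231 bp, the mangrove unigene drew no read (0) in either control library, then 2 and 1 under salt. Its 0.0746 and 0.0474 RPKM in salt lay below the 0.109 to 0.142 RPKM that 3 reads would give in these libraries, which is also the limit that a count of 0 allows. No fold change is given for it, and a difference between the groups was not detectable at this depth.

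The 2 members listed as lower were the most abundant ones, and their high values came from 1 library. Ug102419 (728 bp, most similar to a C. roseus sequence) drew 24 and 2176 reads under control conditions, then 16 and 148 under salt. In RPKM these were 1.47, 168, 1.01 and 11.9, so that salt replicate 2 lay above control replicate 1 and the groups overlapped. Control replicate 2 was 114-fold above control replicate 1 and held 99.1% of the summed control RPKM of this unigene. In replicate 2 Ug102419 was 14.1-fold lower in salt. In replicate 1 it was 1.45-fold lower, and there the 95% Poisson intervals of 0.941 to 2.19 RPKM in the control and 0.577 to 1.64 RPKM in salt overlapped.
Ug20505 (1654 bp) drew 222 and 1993 reads under control conditions, then 115 and 412 under salt, or 5.98 and 67.7 RPKM against 3.19 and 14.5 RPKM. Control replicate 2 was 11.3-fold above control replicate 1 and held 91.9% of the summed control RPKM. This unigene was lower in salt in both numbers, 1.87-fold in replicate 1, where the 95% Poisson intervals did not overlap (5.22 to 6.82 RPKM and 2.64 to 3.83 RPKM), and 4.65-fold in replicate 2. The groups overlapped all the same, because salt replicate 2 exceeded control replicate 1.

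The order of the members was not firm within either group. By mean RPKM, the control order was Ug102419 (84.7 ± 118), Ug20505 (36.8 ± 43.6), Ug65696, Ug35061, Ug152478 (0.896 ± 0.656), Ug49200 (0.124 ± 0.175) and Ug42955 at 0 (mean ± SD, n = 2). Of the 6 pairs of neighbours in this order, 1 differed by more than the SD of both members, namely Ug152478 and Ug49200. In salt the order was Ug20505 (8.87 ± 8.03), Ug102419 (6.44 ± 7.68), Ug35061, Ug152478 (4.88 ± 6.90), Ug65696, Ug49200 (0.839 ± 0.646) and Ug42955 (0.0610 ± 0.0192). There 2 of the 6 neighbouring pairs differed by more than both SDs, Ug65696 from Ug49200 and Ug49200 from Ug42955. No neighbours among the upper 5 members of the salt order were separated beyond their spread. Among all unigenes with reads in the library, Ug102419 stood above 99.5% in control replicate 2 and above 54.1% in control replicate 1, while Ug35061 stood above 50.6% in control replicate 2 and above 89.8% in salt replicate 2.

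The members made up the summed ERF RPKM in other proportions in salt than in the control. Ug102419 and Ug20505 together held 72.7% and 98.5% of it in the control and 47.7% and 53.5% in salt. The groups did not overlap, with a mean of 85.6 ± 18.3% (SD, n = 2) in the control and 50.6 ± 4.11% (SD, n = 2) in salt. Ug35061 held 5.96% and 0.517% in the control against 18.4% and 18.6% in salt. In this RPKM share its salt-treated libraries lay closest together of all 7 members. That did not hold for reads not scaled to length, of which Ug35061 took 16.9% and 27.9% in salt. There the salt-treated libraries of Ug49200 lay closer, at 2.12% and 2.08%. The remaining shares changed with the library. Ug65696 held 14.7% and 0.388% in the control and 28.8% and 5.48% in salt, whereas Ug152478 held 4.21% and 0.569% in the control, 0% in salt replicate 1 and 19.8% in salt replicate 2. Ug49200 never held more than 4.34%, and Ug42955 held 0.846% and 0.0960% in salt. As the members were listed for being higher or lower in salt, a shift of the shares from the 2 lower to the 5 higher members follows in part from the list itself.

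**Figure D2:**
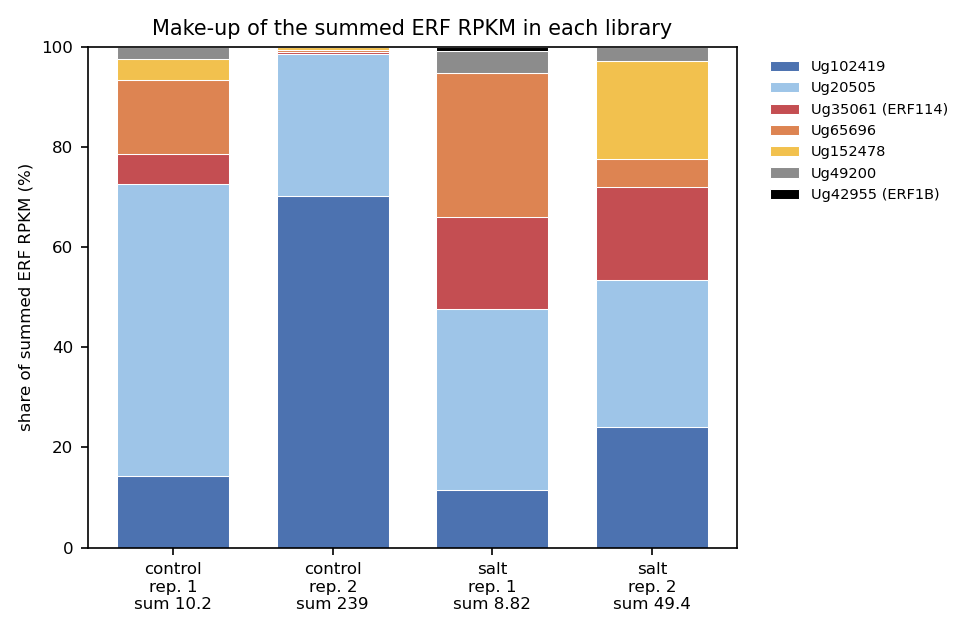
Share of each of the 7 ERF unigenes in the summed ERF RPKM (stacked bars, %) in each library, with the summed RPKM under each bar. Ug102419 and Ug20505 filled 98.5% of the bar of control replicate 2 and 72.7% of that of control replicate 1, against 47.7% and 53.5% in the salt-treated libraries.

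Between the 2 abundant members, the leading one also changed. Ug20505 was the largest member in control replicate 1, with 58.4% of the sum, and in salt replicates 1 and 2, with 36.2% and 29.4%. Ug102419 led only in control replicate 2, where it held 70.2%. The ratio of Ug102419 to Ug20505 in RPKM was 0.246 and 0.316 in control and salt replicate 1, and 2.48 and 0.816 in control and salt replicate 2. Replicate 2 was therefore above replicate 1 in this ratio in both groups, while salt was above control in replicate 1 and below it in replicate 2. The effective number of members, the inverse of the sum of the squared shares, was 2.57 and 1.74 in the control and 3.80 and 4.51 in salt. In reads, not scaled to length, Ug102419 took 50.8% of the ERF reads of control replicate 2 (95% Wilson interval 49.3 to 52.3%) and 5.81% of those of control replicate 1 (3.94 to 8.50%). Wilson and Poisson intervals alike cover only the error of counting, as reads from amplified libraries are not separate molecules.

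The sum itself did not separate the groups. The 7 members summed to 10.2 and 239 RPKM under control conditions (413 and 4287 reads), then to 8.82 and 49.4 RPKM under salt (425 and 1152 reads). The mean was 125 ± 162 RPKM (SD, n = 2) in the control and 29.1 ± 28.7 RPKM (SD, n = 2) in salt, which is 4.28-fold lower, but the sum of control replicate 1 was close to that of salt replicate 1. Of the change of -95.6 in the mean sum from control to salt, Ug102419 made up 81.9% and Ug20505 29.3%, and the 5 other members went the other way by 10.6 RPKM. Those 5 summed to 2.79 and 3.52 RPKM in the control and 4.61 and 23.0 RPKM in salt, where most of the increase was in replicate 2. Without control replicate 2 the sum of all 7 was higher in salt, by 1.51 on the log2 scale, in place of lower by a log2 ratio of -2.10.

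Across the 62900 unigenes with enough reads to be tested, the quasi-likelihood test of edgeR (Benjamini-Hochberg adjusted p) called 0 between the groups at an adjusted p of 0.05 (0% of those tested), and 129 (0.205%) at an unadjusted p under 0.05. DESeq2 called 2 (0.00318%). Of the 7 ERF unigenes, 5 had enough reads and Ug49200 and Ug42955 did not. None of these 5 was called by either tool, while 0 of them in edgeR and 2 in DESeq2 had an unadjusted p under 0.05, which in DESeq2 held for 0.515% of the tested unigenes. As the contrast chose the members, nothing is read from these counts. The log2 fold changes of this fit, salt against control, were 2.53 (standard error 1.02) for Ug35061, 2.44 (standard error 2.03) for Ug152478 and 1.07 (standard error 0.52) for Ug65696. They were -3.73 (standard error 2.20) for Ug102419 and -2.08 (standard error 1.32) for Ug20505. With 2 libraries in each group, an exact two-sided permutation test of a single unigene cannot give a p below 0.333.

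Leaving out 1 library at a time moved these values most for the abundant members. Without control replicate 2 the log2 fold change of Ug102419 turned to 2.17 and that of Ug20505 to 0.60, and without salt replicate 2 they were -6.49 and -3.63. For Ug35061 the value was 0.72 without salt replicate 2 and between 2.11 and 3.30 without any of the other libraries. Ug65696 kept within 0.81 and 1.46. Ug152478 was between 1.82 and 3.49 and no longer had enough reads without salt replicate 2. In these fits the numbers of the libraries are unequal between the groups, and a lone library is assumed to vary like those of the other group.

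**Figure D3:**
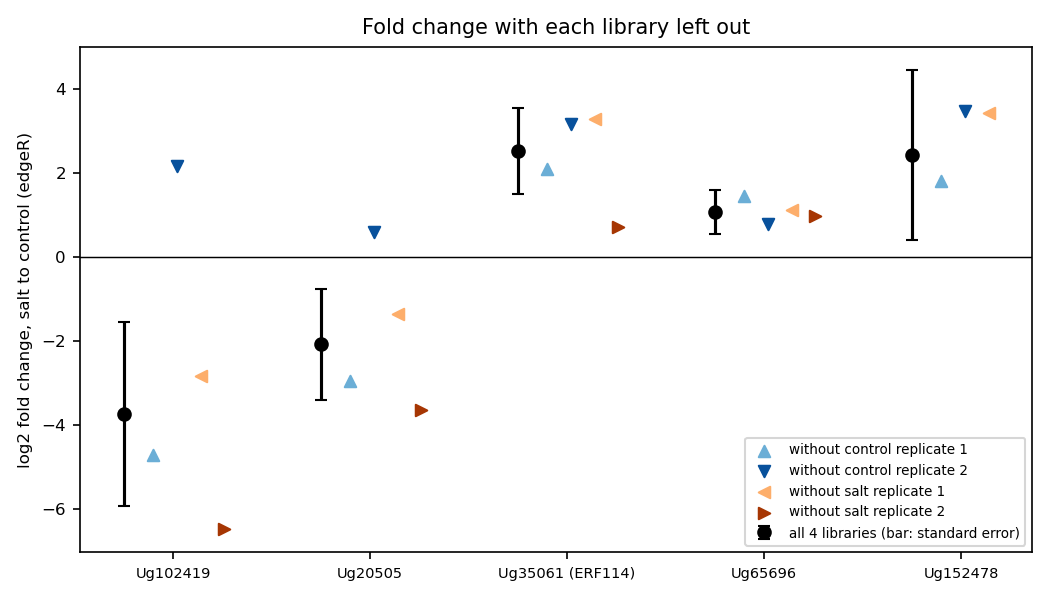
Log2 fold change, salt to control, of the 5 ERF unigenes with enough reads, from edgeR with all 4 libraries (black, bar: standard error) and with each library left out (coloured). The values of Ug102419 and Ug20505 lay above 0 without control replicate 2, at 2.17 and 0.60, and those of Ug65696 stayed between 0.81 and 1.46.

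Salt exceeded control in all pairs of libraries for 4 of the 7 members, Ug35061, Ug65696, Ug49200 and Ug42955, the last on 3 reads. Among all 121929 unigenes with reads this held for 9.7%, and among those tested for 9.43%. Both were below both control libraries for 0 of the 7, against 7.48% of the unigenes with reads and 6.92% of those tested. Here too the members were chosen on the difference counted. Within libraries of the same number the same 4 members were higher in salt in both numbers (22.6% of unigenes with reads, 27.1% of those tested) and Ug102419 and Ug20505 were lower in both (16.8% and 20.6%). Ug152478 was lower in replicate 1, on 4 against 0 reads with overlapping Poisson intervals, and higher in replicate 2.
For Ug102419 and Ug20505 the log2 ratios of TMM-normalized CPM (reads relative to library size, not to length) plus 0.1, salt to control, were -0.55 and -0.96 in replicate 1 and -3.81 and -2.22 in replicate 2. For Ug35061 and Ug65696 they were 1.27 and 0.67 in replicate 1 and 2.84 and 1.51 in replicate 2. The size of the difference was larger in replicate 2 for each of these members. Over all tested unigenes, 5th to 95th percentile, this ratio ran from -1.08 to 0.98 in replicate 1 and from -1.61 to 1.45 in replicate 2.

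**Figure D4:**
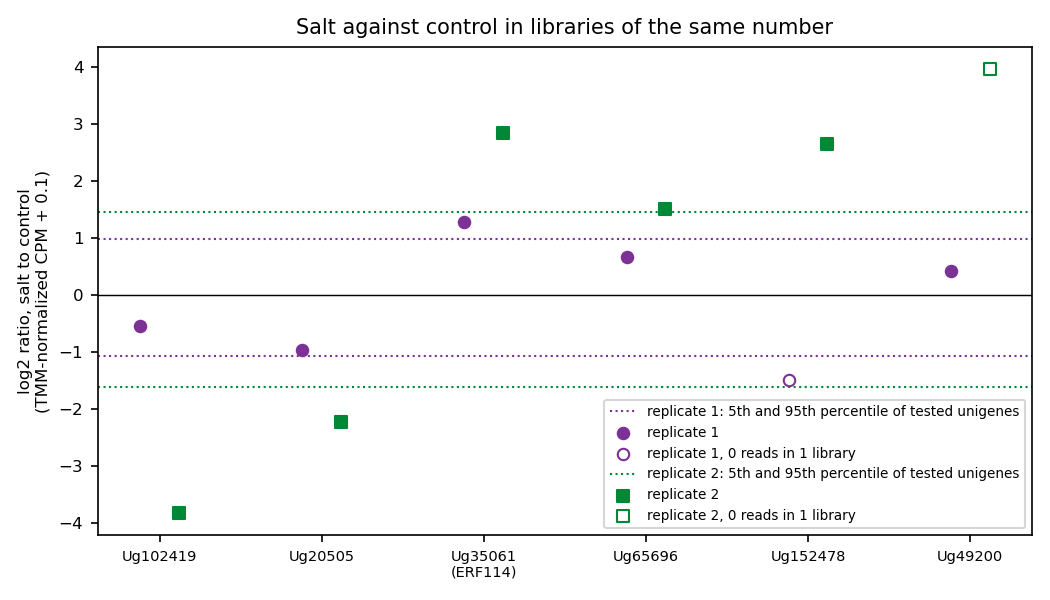
Log2 ratio of TMM-normalized CPM plus 0.1, salt to control, of 6 ERF unigenes in libraries of replicate 1 (circles) and replicate 2 (squares); open symbols have 0 reads in 1 of the libraries and a size set by the added 0.1, and dotted lines are the 5th and 95th percentiles of the tested unigenes. Of the filled circles, that of Ug35061, at 1.27, lay outside the range of replicate 1, whereas all filled squares lay outside that of replicate 2.

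The difference between the 2 libraries of a group was large for several ERFs. It is given as a description too, because a single high library raises the group value by which the members were listed. In the control, replicate 2 stood above replicate 1 by 6.75 for Ug102419 and by 3.52 for Ug20505 on the same log2 scale. Of the tested unigenes, 0.701% and 3.77% differed as much between the control libraries, in either direction. In salt the same ratio was 3.48 for Ug102419 and 2.27 for Ug20505, and 3.19% and 10.9% of the tested unigenes differed as much. Ug35061 differed by 2.03-fold in RPKM in the control (40.7% of tested unigenes differed as much) and by 5.67-fold in salt (8.37%). Ug65696 differed little, by -0.65 and 0.19. Salt replicate 2 was above salt replicate 1 for each of the 5 tested members, and for 45.8% of all tested unigenes. In both groups replicate 2 was the higher one for 4 of the 5, Ug35061, Ug152478, Ug102419 and Ug20505, compared with 33.9% of the tested unigenes. What else differed between the replicates was not tested, and the replicate numbers also differ in depth in both groups.

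**Figure D5:**
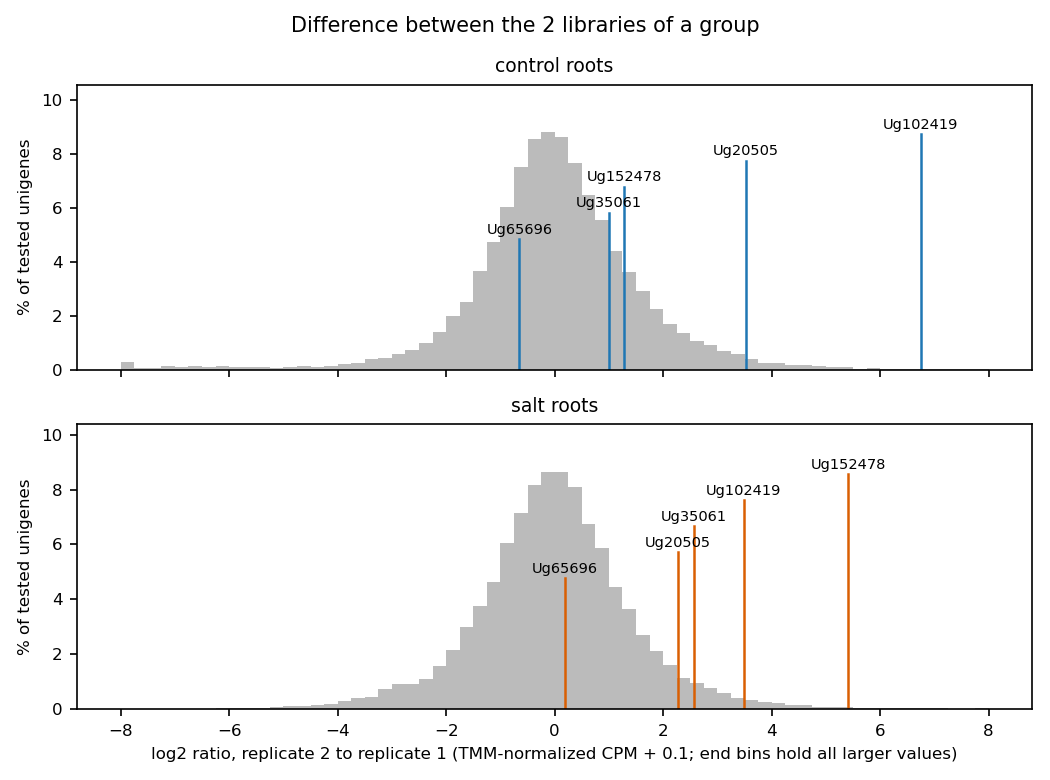
Log2 ratio of TMM-normalized CPM plus 0.1 between replicate 2 and replicate 1 in the control (top) and in salt (bottom), with grey bars for the share of the 62900 tested unigenes and coloured lines for the 5 tested ERF unigenes. Ug102419 stood at 6.75 in the control and 3.48 in salt, and Ug65696 at -0.65 and 0.19.

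The number of Ug152478 falls in a stretch of the table that is mostly read in replicate 2. Of the 1000 unigenes with the nearest numbers, 946 had reads, and 36.3% of these had reads in replicate 2 libraries only, compared with 8.03% of all unigenes with reads. For 53.5% of these 946, over 90% of the CPM was in replicate 2, as it was for Ug152478 itself with 96.2%. Ug102419 also had 98.7% of its CPM in replicate 2, but of the unigenes with reads around its number 11.7% had over 90% there, against 10.6% of all. The other 5 members had between 38.8% and 90.0% of their CPM in replicate 2, with Ug20505 just over 90%, at 90.03%. Of the unigenes with reads around the numbers of these 5, between 3.27% and 11.5% had over 90% of their CPM in replicate 2. What the order of the numbers stands for was not tested.

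Among the 21 tested unigenes of other transcription factor families in the study's list, those closest to each ERF by Pearson r of the log2 TMM-normalized CPM plus 0.5 came from several families. With 4 libraries as the only points, and a list made from the same contrast, r is high throughout and is a description only. Ug102419 was closest to the GATA unigene Ug137615 (r = 0.999), with 1 and 99 control reads against 0 and 18 salt reads, then to the MYB unigene Ug86066 (r = 0.999) and the bHLH unigene Ug49859 (r = 0.995). Ug20505 was closest to the bZIP unigene Ug59417 (r = 0.999), the GATA unigene Ug10919 (r = 0.997) and Ug86066 (r = 0.990). Both ERFs thus shared with unigenes of other families a peak in control replicate 2. Ug35061 was closest to the WRKY unigene Ug100648 (r = 0.996), with 4 and 9 control reads against 11 and 45 salt reads, followed by the NAC unigene Ug64865 (r = 0.945) and the WRKY unigene Ug8314 (r = 0.938). Ug152478 followed the GTE unigene Ug149801 (r = 0.982), the Trihelix unigene Ug113286 (r = 0.941) and Ug100648 (r = 0.928). Ug65696 followed the GATA unigene Ug154250 (r = 0.976), the zinc finger CCCH unigene Ug66562 (r = 0.869) and Ug64865 (r = 0.861).
Among the ERFs themselves, r was 0.989 between Ug102419 and Ug20505 and 0.893 between Ug35061 and Ug152478. Ug65696 had r = -0.62 with Ug102419 and -0.66 with Ug20505. Between Ug35061 and the 2 abundant members r was 0.168 and 0.138.

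Within all 57 transcription factor unigenes of the study's list, the ERFs held 9.44% and 61.0% of the summed RPKM under control conditions, then 25.9% and 29.5% under salt. The 50 other unigenes summed to 98.3 and 153 RPKM in the control and 25.2 and 118 RPKM in salt. The study listed 22 of these 50 as higher and 28 as lower in salt, again from these libraries. Both salt-treated libraries were above both control libraries for 16 of the 50 (9.7% of all unigenes with reads) and below them for 7 (7.48%). Over 90% of the control CPM was in 1 library for 2 of the 5 tested ERFs and for 12 of the 21 tested unigenes of other families, compared with 7.98% of all tested unigenes. Of those 21, edgeR and DESeq2 called 0. An unadjusted p under 0.05 was found for 2 in edgeR and 3 in DESeq2, against 0.205% and 0.515% of all tested unigenes. As the contrast chose this list too, nothing is read from these counts.

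As context, 6 unigenes with a role near ethylene signalling or methionine metabolism were taken from the study's lists, adenosylhomocysteinase for its general role and not for a link made by the study. The study lists all 6 as higher in salt in these libraries, so their direction was fixed by that choice. Both salt-treated libraries were above both control libraries for 3 of the 6, against 9.7% of all unigenes with reads. Of the 2 with enough reads for a test, edgeR and DESeq2 called 0, and 1 had an unadjusted p under 0.05 in each tool. That held for 0.205% of all tested unigenes in edgeR and 0.515% in DESeq2, and nothing is read from a list chosen on this contrast. Cationic peroxidase 1 (Ug74595), an enzyme of cell wall and peroxide chemistry, had 105 and 86.6 RPKM in the control and 363 and 467 RPKM in salt. Hexokinase-1 (Ug152117), in Arabidopsis a glucose sensor that acts against ethylene signalling, drew 4 and 2 control reads against 10 and 9 salt reads. Glutamate synthase 1 (Ug117296), which supplies glutamate, had 2 and 4 reads and 6 and 21 reads. Hexokinase-1 and glutamate synthase 1 thus counted as not overlapping on few reads, too few for a test.
The groups overlapped for the other 3, and each was highest in salt replicate 2. The Trihelix factor GT-3b (Ug113286) had 1.64 and 13.8 RPKM in the control and 2.94 and 61.6 RPKM in salt. NAC domain-containing protein 2 (Ug42722) had 0 and 2 reads against 0 and 50, and adenosylhomocysteinase (Ug150526), which recycles the by-product of methylation reactions, had 2 and 6 reads against 4 and 110. Salt replicate 2 was above salt replicate 1 in CPM for all 6 of these unigenes.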

How the data were processed

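Read counts and RPKM of 4 root libraries (2 control, 2 salt-treated) were used. The authors assembled clean reads de novo with Trinity and deposited, for each library, raw read counts per unigene without normalization. The authors obtained RPKM with SOAP, and recomputing it from the counts and lengths gave an error of at most 5e-05. The way of counting read pairs and multiply mapped reads was not given in the sources used here.

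Groups and replicate numbers came from the titles of the samples. Counts were tested on the whole table with edgeR 4.0.16 in R 4.3.3 (unigenes kept by filterByExpr at min.count 10 and min.total.count 15, TMM scaling, a model with the group alone, glmQLFit and glmQLFTest), with p-values adjusted over 62900 unigenes by Benjamini-Hochberg. Standard errors were derived from the F statistic. The edgeR script was tested on simulated counts with known changes. The biological coefficient of variation was 0.671. Shares, sums and intervals (95%) were computed in Python 3.11.15 with pandas 2.3.3, scipy 1.17.1 and statsmodels 0.14.6. A count of 0 allows up to 3 reads, which is 0.134 to 0.175 CPM. Alternatives were DESeq2 1.42.0, limma 3.58.1 on log2(RPKM + 0.1) and log2(RPKM + 1), other scaling and filters, the replicate number as a term, pooled or unscaled shares and each library left out.

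The members and lists were chosen with earlier results of these data known. All 7 members were described, the 6 ethylene-linked unigenes were named, and the 3 most similar listed transcription factors of other families were named for each tested member. Whether the libraries of a group came from plants grown separately is stated only as biological replicates of 3 plants each.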

Additional observations from a re-analysis of the deposited data

How the results depend on the processing

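Among 12 alternatives to the whole-table test, 10 called 0 unigenes between salt and control, while DESeq2 called 2, 1 in each direction. With each library left out, the calls lay between 0 and 2. Of 58 fold changes of the 5 tested ERFs under alternatives, 56 kept their sign, and those of Ug102419 and Ug20505 turned without control replicate 2, to 2.17 and 0.60. Their leave-one-out ranges were -6.49 to 2.17 and -3.63 to 0.60. With limma on log2(RPKM + 0.1) the value of Ug152478 was 0.17, against 2.44 in edgeR.
The replicate numbers come from the titles, and nothing in the labels says that a number marks a shared batch. With the replicate number as a block, edgeR called 0 unigenes. Its unadjusted p was under 0.05 for 586 unigenes higher and 1572 lower in salt, against 60 and 69 without the block. The log2 fold changes were 2.15 (standard error 0.49) for Ug35061, 1.49 (1.26) for Ug152478 and 1.10 (0.38) for Ug65696. They were -2.56 (0.77) for Ug102419 and -1.62 (0.38) for Ug20505. As the contrast chose the members, these values are a description. The deviations of same-numbered libraries from their group means correlated across unigenes with r = 0.668.
Without scaling to length (CPM), Ug102419 and Ug20505 together held 39.7% of the ERF sum in salt and Ug35061 held 22.4%. On RPKM, with 1 library left out, the share of Ug102419 and Ug20505 ran from 47.7% to 53.5% in salt and from 72.7% to 98.5% in the control, and that of Ug35061 from 18.4% to 18.6% and from 0.517% to 5.96%. The log2 ratio of the summed RPKM, salt to control, was 2.13 without Ug102419 and Ug20505, which follows from their being the members listed as lower, and -0.82 without Ug102419. With each library left out it ran from -3.82 to 1.51. Chosen after seeing the data, it was -0.22 in replicate 1 alone and -2.28 in replicate 2 alone. The number of members whose groups did not overlap was 1 where the gap had to exceed the Poisson intervals, and 4 to 7 with each library left out, which leaves fewer values to overlap. The shares of all unigenes under these rules were not computed, so nothing is read from these counts. Depth limits Ug42955 and Ug49200 most, with 3 and 39 reads in all 4 libraries together.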
